A study of Mus musculus with 2 samples.

Results

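The hepatocytes of a liver lobule are ordered along the blood flow from the portal tract to the central vein, and those halfway, the midlobular hepatocytes, are known for a strong output of hepcidin. Spots of the middle of this axis were described here in 1 liver section of a mouse on a normal chow diet (NCD) and 1 liver section of a mouse on a high-fat diet (HFD), measured by spatial transcriptomics. The members were chosen by expression: each spot over tissue with at least 3000 unique molecular identifiers (UMIs) was scored as the log2 ratio of the UMIs of 4 pericentral genes (Cyp2e1, Cyp1a2, Oat and Glul) to those of 4 periportal genes (Cyp2f2, Hal, Sds and Gls2), with 1 added to each sum. The spots between the 40th and the 60th percentile of the section's own scores were taken. They numbered 421 of 2107 scored NCD spots and 710 of 3538 scored HFD spots, or 1131 of 5645 in all, and they were set against the outer 20% of spots on each side, called the periportal side (424 NCD and 709 HFD spots) and the pericentral side (424 NCD and 708 HFD spots).

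Both mice were male C57BL/6J. The mice of the study were bought at 5 weeks of age and acclimated for 1 week. The HFD mouse then received a diet with 60% of its energy from fat for 14 weeks before the study's treatment period of 8 weeks. During that period both mice were given distilled water by mouth, and whether the high-fat diet went on is not stated. Each section was cut at 10 µm from 1 mouse, so diet, animal and section cannot be told apart. The diets could not be compared by any test over animals, and every interval given is a 95% interval that covers counting error only. The labels name liver as the tissue and, in other fields, immune cells. Hepatocyte transcripts prevailed, Trf alone making up 6626 and 11536 CPM (a gene's UMIs scaled to a total of 1000000 per group) in the NCD and HFD middle-score spots against 508 and 745 for 12 Kupffer cell genes together. A Visium spot covers several cells. A middle score is therefore also what a spot with cells of both sides would get, and fewer cells of a type cannot be told apart from less RNA per cell.

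Hepcidin, the product of Hamp, is a hormone of the hepatocyte that blocks the export of iron into blood by degrading ferroportin (Slc40a1). Its transcription is raised by iron through bone morphogenetic proteins (BMPs) and SMAD proteins, and by inflammation through interleukin 6 and STAT3. The mouse carries a second copy, Hamp2, close to Hamp on chromosome 7, which is not known to act on iron as Hamp does. Igfbp2 encodes a binding protein for insulin-like growth factors that hepatocytes secrete.

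The promoters of the pair are shown because Hamp and Hamp2 went opposite ways in the middle-score spots. The stretches below run from base 160 to base 11 before the RefSeq start in GRCm38.p6, 5′ to 3′ on the minus strand. Those of Hamp lie at chr7:30944040-30944189 and those of Hamp2 at chr7:30924192-30924341. Capitals mark GGCGCC, the core of the BMP-responsive element, and TTCNNNGAA, a STAT site, searched on both strands.
Hamp: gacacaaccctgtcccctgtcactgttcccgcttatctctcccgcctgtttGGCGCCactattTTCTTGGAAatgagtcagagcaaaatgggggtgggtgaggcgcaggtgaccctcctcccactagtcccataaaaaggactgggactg
Hamp2: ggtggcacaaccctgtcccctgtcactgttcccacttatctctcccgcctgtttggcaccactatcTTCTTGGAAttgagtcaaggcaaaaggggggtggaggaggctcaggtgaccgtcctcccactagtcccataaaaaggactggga

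Of 153 aligned columns of these stretches, 135 were identical (88.2%). Hamp held the BMP element core 109 bases before its start, and Hamp2 held none in its window, with the change G4A in the 6 letters aligned to it (positions counted from 1 at the 5′ end of the core). The STAT letters stood 97 bases before the start of Hamp and 94 bases before that of Hamp2. Among 32851 promoter windows of 300 bases, 11.9% held GGCGCC and 8.30% held TTCNNNGAA, and a match is not evidence of binding. The transcripts of both genes were 92.6% identical over 420 aligned columns, with a shared run of 87 bases, so a read from such a run cannot be given to either gene and the split of UMIs between them is uncertain to that extent.

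The sections differed in depth in a way that touches the results. The median spot of the middle group held 13031 UMIs in NCD, against 7512.5 on the periportal and 10050 on the pericentral side, so that it was the deepest group of its section. In HFD it was the shallowest, at 14463.5 UMIs against 27570 and 18870. The filter of 3000 UMIs left out 1585 of 3692 spots over tissue in NCD (42.9%) and 56 of 3594 in HFD (1.56%). Mitochondrial transcripts made up 8.72% of the UMIs of the middle group in NCD and 5.73% in HFD. Values are also given over the spots of 10000 to 20000 UMIs alone, a choice made after seeing the data, where that range ended a call of a gene named here. It narrowed the depths without matching them, with group medians between 12720.5 and 16811 UMIs. All slides share 1 set of spot barcodes by design, and 74 barcodes belonged to middle-score spots of both sections. The score limits were 2.41 and 3.92 in NCD and 1.95 and 3.04 in HFD. The spots just inside the lower and the upper limit scored 2.410 and 3.923 in NCD and those just outside 2.406 and 3.925, and in HFD the values were 1.948 and 3.044 inside and 1.946 and 3.048 outside. Oat and Cyp1a2, both used in the score, were themselves lower in HFD, at 536 against 1329 and at 48.9 against 416 CPM, so equal scores do not mean equal positions in both sections.

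The label of a midlobular group was checked on Hamp, Hamp2 and Igfbp2, none of which entered the score. In NCD, Hamp stood at 3651, 4071, 4673, 4130 and 3213 CPM over the score quintiles from the periportal to the pericentral end, highest in the middle. Igfbp2 followed with 652, 759, 753, 554 and 387 CPM, at about equal height in the second and the middle quintile. Hamp2 went from 65.5 and 70.3 CPM at the periportal end to 58.4 in the middle and 31.3 at the pericentral end, with no maximum in the middle. In HFD, Hamp declined from the periportal end through 755, 730, 604, 486 and 341 CPM. Hamp2 declined likewise from 232 to 96.5 CPM, and Igfbp2 went through 226, 238, 214, 188 and 150 CPM. The middle of the score carried a Hamp maximum in NCD and no maximum of any of the 3 markers in HFD, for which reason the spots are called middle-score spots.

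**Figure D1:**
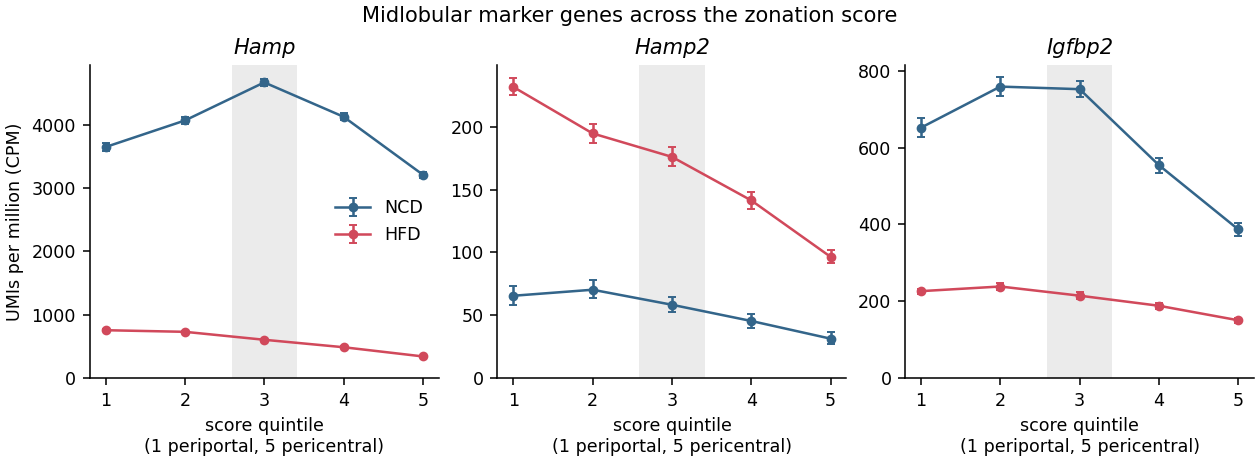
CPM of Hamp, Hamp2 and Igfbp2 (y axes, linear from 0) over the 5 quintiles of the zonation score (x axes, from the periportal to the pericentral end) in the NCD section (blue) and the HFD section (red), with 95% Poisson intervals and the middle quintile shaded. Hamp is highest in the middle quintile of NCD, at 4673 CPM, while in HFD it declines from 755 to 341 CPM.

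Hamp was lower in the HFD section in the middle-score spots by 7.72-fold. Spot by spot it ranged from 331 to 9321 CPM in NCD with a median of 4222, and from 0 to 2866 CPM in HFD with a median of 528. No HFD spot reached the NCD median, and 420 of the 421 NCD spots lay above the HFD median, although the ranges overlapped. Pooled over spots, the level was 4668 CPM in NCD (4616 to 4721) and 604 in HFD (591 to 618), which is −2.95 on the log2 scale (−2.99 to −2.91). The difference was smaller on the periportal side (−2.27) and larger on the pericentral side (−3.24). It was −2.66 over the spots of 10000 to 20000 UMIs. Spots off the tissue, with a median of 3383 UMIs in NCD and 1175.5 in HFD, held Hamp at 4015 and 617 CPM. With the mean off-tissue spot of each section subtracted, the log2 ratio was −3.05. The part of the off-tissue spots in the difference was not tested further.

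Hamp2 went the other way and was 3.01-fold higher in HFD. The median middle-score spot held 0 CPM in NCD, with a maximum of 561, and 156 CPM in HFD, with a minimum of 0 and a maximum of 1062. A Hamp2 UMI was found in 41.6% of the NCD and 88.5% of the HFD spots, and with every spot drawn down to 3000 UMIs in 13.5% and 43.7%. Pooled over spots, the level was 58.4 CPM in NCD (52.7 to 64.6) and 176 in HFD (169 to 184), which is 1.59 on the log2 scale (1.43 to 1.75), and the ratios of the outer groups were close to it, at 1.83 and 1.61. The log2 ratio of Hamp2 lay 4.54 (4.38 to 4.70) above that of Hamp in the middle-score spots, 4.10 above it on the periportal side and 4.85 above it on the pericentral side.

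Igfbp2 was 3.50-fold lower in HFD. Its spots ranged from 0 to 2397 CPM in NCD with a median of 732, and from 0 to 794 CPM in HFD with a median of 196, and 3 of 710 HFD spots lay above the NCD median. The pooled levels of 751 and 214 CPM gave a log2 ratio of −1.81 (−1.88 to −1.74). That difference lay 0.28 (0.18 to 0.38) further from 0 than on the periportal side and 0.45 (0.33 to 0.56) further than on the pericentral side, the largest of the 3 differences.

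**Figure D2:**
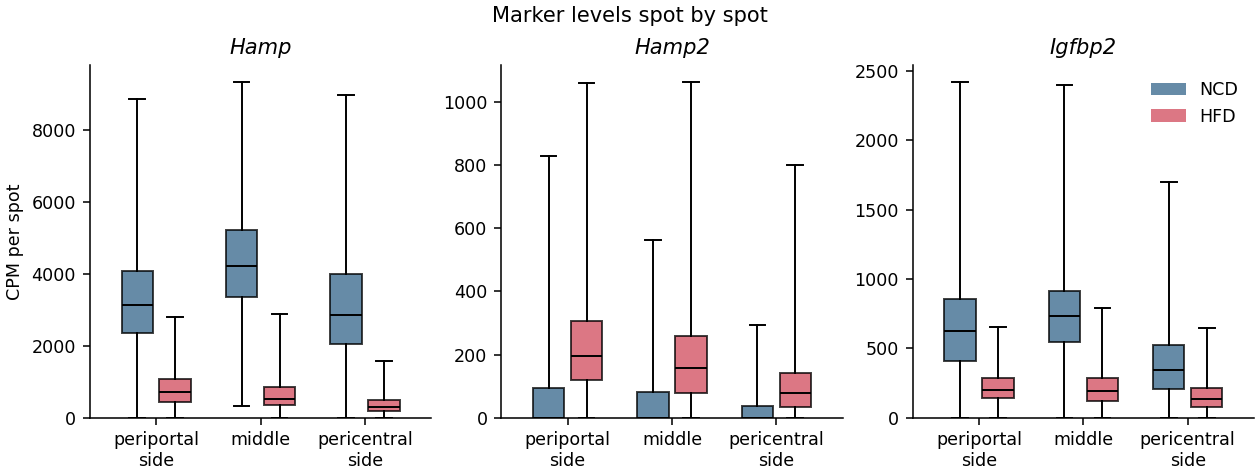
CPM per spot (y axes, linear) of the 3 markers in the periportal, middle and pericentral groups of the NCD section (blue) and the HFD section (red). Boxes span the quartiles with the median as a line and whiskers run to the lowest and the highest spot. The Hamp and Igfbp2 boxes of HFD lie below those of NCD in every group and the Hamp2 boxes above them.

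Over all genes, 6096 had at least 200 UMIs over both middle groups. Of these, 506 (8.3%) were at least 2-fold higher in HFD with an interval that left out 0, and 108 (1.77%) were at least 2-fold lower. The median log2 ratio over all of them was 0.24, so the centre of the distribution lay above 0, and the lists below are read against that value and those shares. Centred on the median, 299 genes were higher and 165 lower, which took the share of higher calls from 82.4% to 64.4%. The ratio could be computed and had the same direction with every spot drawn down to 3000 UMIs for 5141 genes (84.3%). The count of higher genes was 109 in that setting and 210 over the spots of 10000 to 20000 UMIs, where 181 of the 222 genes of the 506 that had enough UMIs were still called. The middle ratio lay above both outer ratios for 100 of the 6096 genes and below both for 88, with intervals leaving out 0. A difference given below for the middle is therefore not by itself particular to it. Summed genes of iron uptake, storage and export had ratios of 0.90 in the middle, 0.81 periportally and 0.88 pericentrally. Those of fatty acid synthesis had 0.13, −0.21 and 0.86.

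Several genes of iron and haem handling were higher in HFD. Of 15 tested genes of uptake, storage and export, 5 were called higher and none lower, with a median of 0.80. Tfrc, the transferrin receptor of iron uptake, had 7 UMIs in the NCD and 209 in the HFD middle-score spots, or 1.07 and 17.3 CPM, a log2 ratio of 4.01 (2.94 to 5.34). Hp, which binds free haemoglobin, stood at 5136 against 1898 CPM (1.44), Cp, a copper oxidase of iron export, at 594 against 247 CPM (1.27), and Hpx, which binds haem, at 4969 against 2453 CPM (1.02). Hmox1, which breaks down haem, stood at 24.6 against 12.1 CPM (1.02), a call that was lost at 10000 to 20000 UMIs (0.64, −0.01 to 1.33). The ferritin genes Ftl1 (1.00) and Fth1 (0.57) and the plasma iron carrier Trf (0.80) lay above the median of all genes without a call. Slc40a1, the exporter that hepcidin degrades, was at 70.4 against 104 CPM (−0.56).

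None of the 9 tested genes of the BMP and SMAD control of hepcidin was called and their median was 0.29. Hjv, a BMP co-receptor, stood at 60.2 against 39.3 CPM (0.62), and Tfr2, a sensor of transferrin iron, at 202 against 247 CPM (−0.30). The SMAD target Id1 had a log2 ratio of 0.32 (−0.05 to 0.70). Smad7 (0.21, −0.30 to 0.74) and the ligand Bmp6 (−0.62, −1.37 to 0.14) had too few UMIs to be tested.

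Red blood cell transcripts differed as well. Hba-a2, a globin gene, stood at 309 against 1823 CPM in the middle-score spots (−2.56), and the ratio was −1.75 over the spots of 10000 to 20000 UMIs. In NCD it was among the 10 highest peaks of the middle group, with 1302 and 964 CPM on the periportal and the pericentral side, but in that range the middle fell below the periportal side (log2 ratio −0.21). Its part in the iron results was not tested.

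The 10 highest ratios among genes with UMIs in both sections at 3000 UMIs per spot, which left out Mmp12 (4.92) and Cidea, ran from 16.1-fold upwards. Cyp2b9, a cytochrome P450, had 17 UMIs in NCD and 1939 in HFD, or 2.61 and 160 CPM (5.94). Lcn2, an iron-siderophore binding protein of the acute phase, stood at 167 against 5.37 CPM (4.96), the surface protein Ly6d at 201.3 against 6.75 CPM (4.90), and Gdf15, a stress hormone, at 62.7 against 2.15 CPM (4.87). Cyp2a22 followed at 4.84, Cdkn1a, the cell cycle inhibitor p21, at 4.57, Cidec, a protein of lipid droplet fusion, at 4.42, Gpnmb, a marker of lipid-laden macrophages, at 4.23 (3.43 at 10000 to 20000 UMIs), and Tfrc had the lowest ratio of the 10. Gdf15 and Cdkn1a were nearly level over the lobule in HFD, with 58.4, 62.7 and 57.7 CPM of Gdf15 and 45.5, 50.9 and 43.4 CPM of Cdkn1a from the periportal to the pericentral side.

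Of the 10 lowest ratios, 4 belonged to major urinary proteins. Slco1a1, an organic anion carrier, had 834 UMIs in NCD and 2 in HFD, a log2 ratio of −9.60 (−12.64 to −7.74), and Hsd3b5, a steroid dehydrogenase, had 408 and 2 (−8.56, −11.61 to −6.70). Mup7, Mup11, Mup9 and Mup14, the urinary proteins, had log2 ratios of −7.24, −5.58, −5.36 and −3.58. Cyp4a12b stood at −6.90, Gm3734 at −5.59, Cyp2c54 at −5.54 and Serpina1e, an antitrypsin gene, at −4.18. The Mup genes are nearly identical copies that share reads, as are the members of the Cyp2c, Cyp4a and Serpina1 families, so the level of a single member is uncertain. All but Serpina1e and Mup14 were higher in NCD in the middle than on the periportal side, and Hsd3b5 went from 22.1 CPM there to 62.6 in the middle and 93.3 on the pericentral side.

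Of 13 tested genes of the lipid droplet coat and lipolysis, 6 were called higher in HFD and none lower, and the median was 0.93. Of this list, 6 of 15 genes tested in HFD and 1 of 10 in NCD were graded towards the pericentral side. Over all genes the shares were 215 of 9021 in HFD (2.38%) and 160 of 5199 in NCD (3.08%). Cidec went through 36.4, 95.0 and 130 CPM in HFD from the periportal over the middle to the pericentral side, against 3.35, 4.45 and 5.86 CPM in NCD. Cidea, of the same family, had no UMI in the 421 NCD and 249 in the 710 HFD middle-score spots, at least 44.8-fold higher when the NCD group is set at 3 counts in all, and its HFD levels were 6.18, 20.6 and 60.9 CPM. The coat genes Plin4 (3.48), Plin3 (1.35) and Plin2 (0.93) and the droplet gene Fitm1 (1.31) lay higher too, the Plin2 level going from 375 to 715 CPM in the middle-score spots.

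Of 14 tested genes of fatty acid synthesis, 2 were called higher, Thrsp, a regulator of lipogenesis (297 against 44.8 CPM, 2.73), and Fasn, the fatty acid synthase (123 against 42.8 CPM, 1.52), with a median of 0.73. Scd1, the desaturase that makes monounsaturated fat, stood at 6247 against 6331 CPM (−0.02) in the middle-score spots, at −0.41 on the periportal and 0.76 on the pericentral side. Of 19 tested genes of uptake and esterification, 4 were called higher, namely the phosphatidate phosphatase Lpin1 (3.83), Mogat1 (2.52), the fatty acid carrier Cd36 (2.45) and Fabp4 (2.16), and the median was 0.37. Over all spots, Fabp4 was among the 5 genes whose ratio in the middle lay farthest above that of both outer groups, with 14.3 CPM in NCD against 22.1 and 62.2 on its sides. At 10000 to 20000 UMIs its NCD middle over the periportal side was −0.29, with an interval that took in 0 (−1.16 to 0.60). Over the pericentral side it was −2.30 (−2.96 to −1.69). Whether the diet ratio of Fabp4 in that range was higher in the middle than periportally was not tested.

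The genes of fatty acid oxidation split. Of 24 tested, 4 were called higher and 2 lower, with a median of 0.18. Cyp4a14 (690 against 2189 CPM, −1.67) and Cyp4a10 (483 against 1311 CPM, −1.44), both omega-hydroxylases and classical targets of PPAR-alpha, were lower. Fgf21, a fasting hormone (2.31), Acot2 (1.55), Vnn1 (1.45) and Ucp2 (1.08), also known PPAR-alpha targets, were higher, of which Ucp2 was at 0.89 and no longer called at 10000 to 20000 UMIs. Of 13 bile acid genes only Cyp7b1, of the alternative pathway, was called, at 37.6 against 199 CPM (−2.40), and of 19 cholesterol genes only Tm7sf2 (−1.17) and Hsd17b7 (−1.13). The medians of both lists, −0.13 and −0.02, lay below that of all genes.

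**Figure D3:**
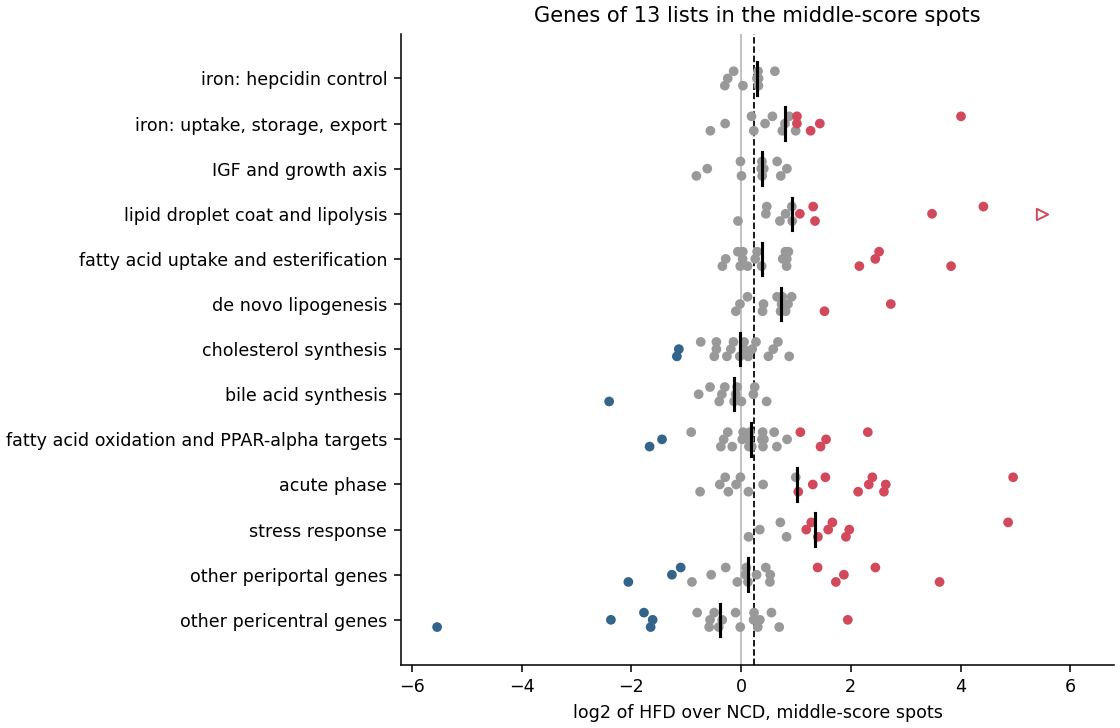
Log2 of HFD over NCD in the middle-score spots (x axis) for the tested genes of 13 lists (rows, points spread vertically for legibility). Red and blue points are at least 2-fold higher and lower, grey points less, the open triangle is the lower bound of Cidea, short bars are list medians and the dashed line is the median of all genes, 0.24. The stress and acute phase lists have the highest medians, 1.34 and 1.02, and the other pericentral genes the lowest, −0.37.

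Of 18 tested acute phase genes, 9 were called higher and none lower (median 1.02). Besides Lcn2, these included Saa2 (226 against 36.4 CPM, 2.64), Orm2 (2.39), Saa1 (2.33) and Steap4 (2.13), while the fibrinogen gene Fgb stood at −0.75, and the summed level of the list differed by −0.05 on the log2 scale. Of 12 tested stress genes, 8 were called higher and none lower (median 1.34), among them Gdf15, Ddit3 (1.97), the endoplasmic reticulum genes Herpud1 (1.91) and Hspa5 (1.59), and the metallothioneins Mt1 (1.28) and Mt2 (1.19). Ccnd1, a G1 cyclin, stood at 42.9 against 7.06 CPM. None of 11 tested genes of the growth hormone and insulin-like growth factor axis was called. Their log2 ratios ran from −0.81 to 0.84 with a median of 0.38, above that of all genes. Igf1 (−0.62) and its plasma partner Igfals (−0.81) lay at the lower end.

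Genes of the outer zones, measured in the middle-score spots, were shifted unequally. Of 20 tested pericentral genes that the score did not use, 5 were called lower and 1 higher (median −0.37): Cyp2c54, Cyp2c50 (183 against 946 CPM, −2.37), Cyp2c37, Cyp2c29 and Cyp3a11 (1620 against 4947 CPM, −1.61) were lower and the glutathione transferase Gstm3 (1.95) was higher. Of 19 tested periportal genes, 5 were called higher and 3 lower (median 0.13). The urea cycle genes Asl (354 against 847 CPM, −1.26) and Cps1 (988 against 2117 CPM, −1.10) and Etnppl (−2.05) were lower, and Apoa4, Cyp17a1, Aldh1b1, Hsd17b13 and Hsd17b6 were higher, Hsd17b13, a lipid droplet enzyme, at 781 against 236 CPM (1.73). Cps1 had its NCD maximum in the middle, with 1902, 2117 and 1278 CPM, and declined in HFD through 1268, 988 and 523 CPM.

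The gradient of 4 genes was turned between the sections. Of 5184 genes tested in both, these 4 were ordered from 1 side over the middle to the other in NCD and the opposite way in HFD, with the interval of every step leaving out 0. Apoa4, an apolipoprotein of lipid secretion, went through 695, 326 and 185 CPM in NCD and through 3626, 4007 and 4575 CPM in HFD. Igfbp1, an insulin-repressed binding protein, went through 84.8, 152 and 168 CPM in NCD and 187, 151 and 121 CPM in HFD, so that the middle-score spots did not differ measurably (−0.01, −0.12 to 0.10) while the periportal side was higher (1.14) and the pericentral side lower (−0.47). At 10000 to 20000 UMIs the Igfbp1 gradient of HFD was flat between the periportal side and the middle (log2 ratio 0.0086). G0s2, an inhibitor of lipolysis, went through 227, 188 and 165 CPM in NCD and 192, 330 and 458 CPM in HFD, although its NCD quintiles were not ordered throughout (187 and then 194 CPM from the middle onwards). At 10000 to 20000 UMIs the NCD step between the middle and the pericentral side had an interval that took in 0 for G0s2 (0.16, −0.06 to 0.39) and Igfbp1 (−0.04, −0.27 to 0.20). Saa2 went through 27.0, 36.4 and 53.0 CPM in NCD and 305, 226 and 171 CPM in HFD, although over all 5 quintiles its NCD level was not ordered, and at 10000 to 20000 UMIs its NCD ratio of the middle over the periportal side was −0.26.

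**Figure D4:**
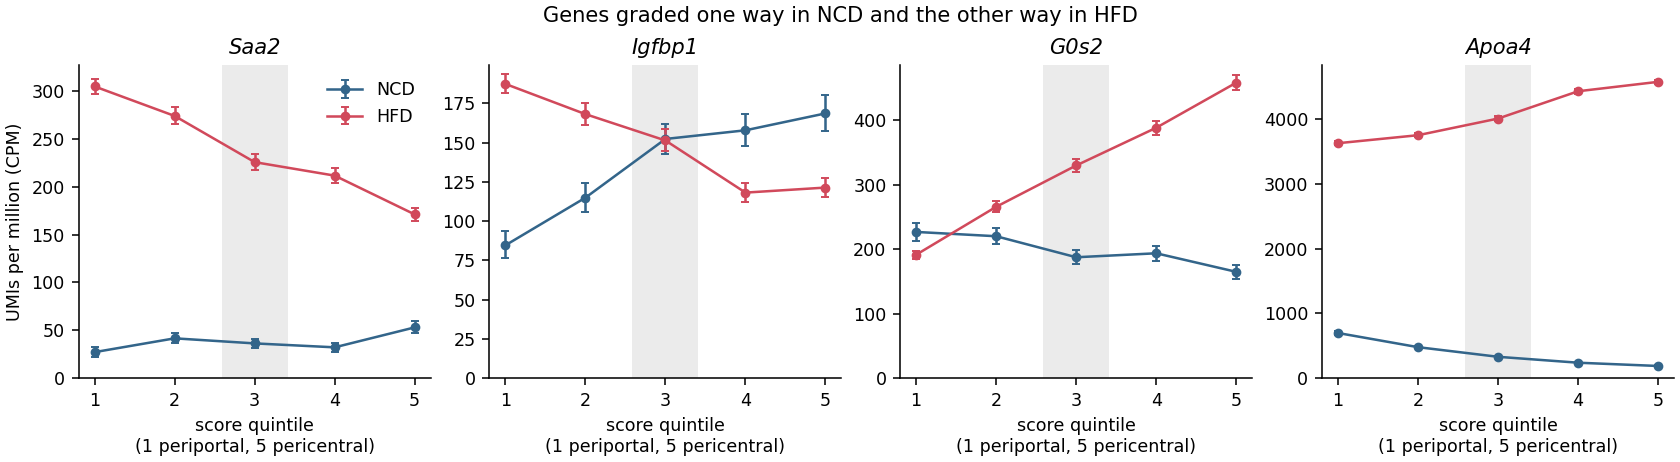
CPM of Saa2, Igfbp1, G0s2 and Apoa4 (y axes, linear from 0) over the 5 score quintiles (x axes) in the NCD section (blue) and the HFD section (red), with 95% Poisson intervals and the middle quintile shaded. The Igfbp1 lines meet in the middle quintile, at 152 CPM in NCD and 151 CPM in HFD.

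Few genes were highest in the middle itself. A gene counted as peaking there when its level was at least 25% above that of each outer group with both intervals leaving out 0. In NCD 19 of 5199 genes did (0.365%), and 15 (0.289%) were lowest in the middle by the same measure. In HFD 81 of 9021 genes peaked (0.898%) and 30 (0.333%) were lowest there. The sections shared 2 peaks, 10.5% of those of NCD and 2.47% of those of HFD, and no gene was lowest in the middle in both. The shared peaks were Gm42418, a locus known to collect reads of ribosomal RNA, and Ctss, a macrophage cathepsin, which was no HFD peak at 10000 to 20000 UMIs (middle over pericentral side 0.12, −0.06 to 0.30). The NCD peaks included Ctss (29.9, 46.3 and 31.8 CPM) and Csf1r, the macrophage growth factor receptor (16.7, 32.7 and 22.5 CPM, and 17.6, 33.9 and 27.5 at 10000 to 20000 UMIs, where the step to the pericentral side was 0.30, −0.24 to 0.85), and Hamp itself met the criterion.

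In HFD, Gm42418 went through 751, 2382 and 1480 CPM from the periportal to the pericentral side, against 496, 927 and 636 CPM in NCD. Ctss went through 81.9, 119.8 and 95.3 CPM in HFD. Rgs1, a regulator of G protein signalling in leukocytes, went through 4.58, 8.19 and 4.52 CPM, and Mmp12, a macrophage elastase, through 18.9, 28.0 and 15.3 CPM. At 10000 to 20000 UMIs the middle over the periportal side was 0.04 for Rgs1 (−0.89 to 1.03) and 0.36 for Mmp12 (−0.19 to 0.94), so neither was a peak there. Vwf, the von Willebrand factor of vessel endothelium, was the lowest of the HFD genes in the middle relative to its sides, with 11.8, 3.89 and 17.6 CPM. Over the spots of 10000 to 20000 UMIs, 4 of the 9 NCD peaks and 6 of the 16 HFD peaks that had enough UMIs there were still called, so the counts of peaks depend on depth.

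Of 9 tested genes of lipid-associated macrophages, 8 were called higher and none lower, with a median of 1.98 in the middle-score spots. Mmp12 stood at 28.0 against 0.92 CPM (4.92), Trem2, a lipid receptor of these cells, at 17.3 against 1.53 CPM (3.49, and 2.91 at 10000 to 20000 UMIs), and Lgals3, galectin-3, at 72.9 against 19.8 CPM (1.88). The summed list went through 299, 309 and 316 CPM in NCD and 657, 765 and 683 CPM in HFD. Over the spots of 10000 to 20000 UMIs the HFD values were 698, 708 and 645 CPM, and the middle over the periportal side was 0.02 on the log2 scale (−0.07 to 0.11).

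Of 9 tested Kupffer cell genes, only Adgre1, a pan-macrophage gene, was called, at 28.9 against 10.9 CPM (1.41), and the call was lost at 10000 to 20000 UMIs (0.56, −0.04 to 1.21). The median of the 9 genes was 0.67, above that of all genes. The summed list differed by 0.55 on the log2 scale, and by 0.20 (0.10 to 0.30) at 10000 to 20000 UMIs. The defining Kupffer genes Clec4f (62.0 against 59.4 CPM, 0.06) and Vsig4 (22.2 against 38.8 CPM, −0.81) were not called. At 10000 to 20000 UMIs Clec4f was at −0.22 (−0.52 to 0.09). Vsig4 was at −1.29 (−1.74 to −0.83) there, from 83 UMIs in NCD and 85 in HFD. Timd4, with 65 UMIs in NCD and 15 in HFD, had too few to be tested. The summed list went through 375, 508 and 432 CPM in NCD and 421, 745 and 662 CPM in HFD, highest in the middle in both. At 10000 to 20000 UMIs the NCD maximum was kept (423, 586 and 420 CPM), and the HFD values of the middle and the pericentral side were equal at 674 CPM.

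Other cell types differed too, and their part in the differences of hepatocyte genes was not tested. Of 10 tested genes of stellate cells and collagen, 6 were called higher, with Col3a1 at 84.4 against 12.7 CPM (2.73), and the summed list stood at 771 against 427 CPM. Sinusoidal endothelial genes summed to 431 against 295 CPM, with Lyve1 the only call (1.56). Bile duct genes summed to 484 against 210 CPM in the middle, with Spp1 at 130 against 22.1 CPM (2.55). Genes of plasma and B cells summed to 35.7 against 89.4 CPM, and those of T and NK cells to 17.5 against 28.1 CPM.

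**Figure D5:**
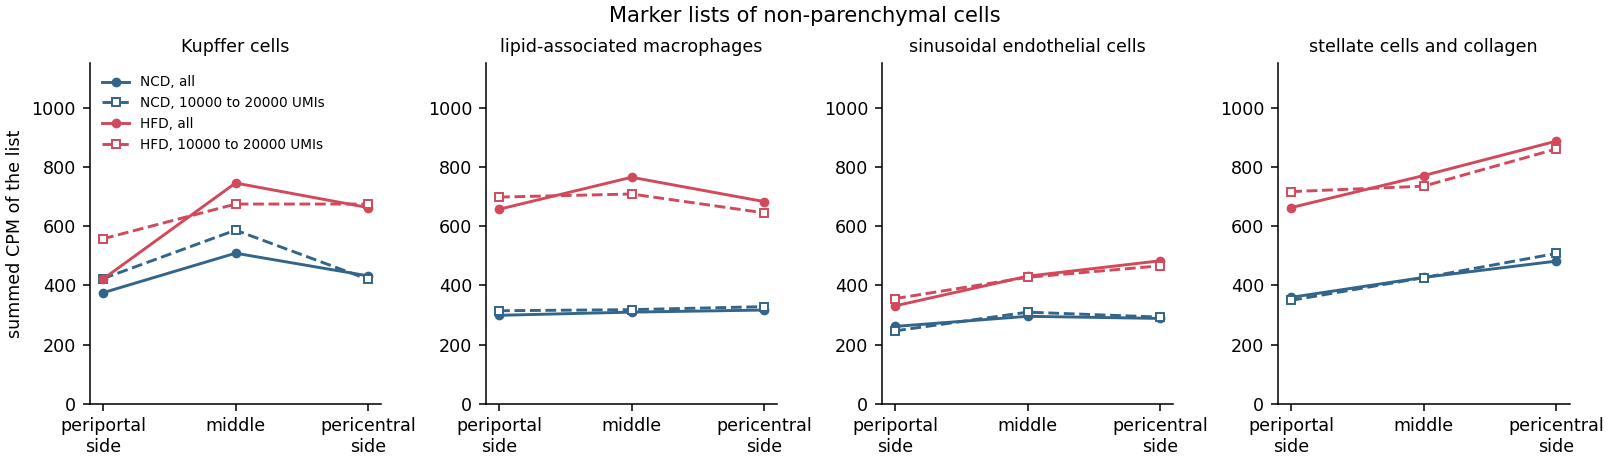
Summed CPM (y axes, linear from 0) of the marker lists of Kupffer cells, lipid-associated macrophages, sinusoidal endothelial cells and stellate cells with collagen in the 3 groups of the score (x axes), in NCD (blue) and HFD (red), over all spots (solid lines, circles) and over spots of 10000 to 20000 UMIs (dashed lines, squares). The Kupffer list of NCD is highest in the middle in both settings, at 508 and 586 CPM.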

How the data were processed

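Spatial transcriptomes of 1 NCD and 1 HFD liver section were used. The deposited values are raw UMI counts per gene and spot, which the authors made with Space Ranger (1.3.1 per the file headers) against mm10 per the labels, with no normalization. Counts of 32285 identifiers were summed to 32245 symbols. Levels are UMIs pooled over the spots of a group, scaled to CPM, with exact Poisson intervals, and log2 ratios carry exact binomial intervals. Genes with at least 200 UMIs over both groups were tested for size, and a call needed a 2-fold difference and an interval leaving out 0. With 1 section per diet no p-value was computed. A Visium spot has no doublet caller, and none was run. Depth was 6518846 UMIs over the NCD and 12090153 over the HFD middle-score spots.

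Named were the markers, the score genes, list members, the 10 highest and 10 lowest ratios with the same direction, and UMIs in both sections, at 3000 UMIs per spot, and the leading peaks, troughs and zone differences. Of the 10 highest, 1 is not reported here. The members and lists were chosen with earlier results of these data known. On simulated counts the rule called all 164 genes changed 3- or 4-fold between the diets and 0 of 5905 unchanged ones. Apart from the planted changes these counts varied by counting error alone, so they give no error rate for calls between animals. Analyses used Python 3.11.15, NumPy 2.4.6, SciPy 1.17.1 and pandas 2.3.3. Alternatives varied the depth, score, percentile limits, minimum counts, centring and off-tissue level, and the restriction to 10000 to 20000 UMIs was added after seeing the data.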

Additional observations from a re-analysis of the deposited data

Results flagged for a closer look

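For the 4 genes of turned gradient, the middle over periportal log2 ratio had opposite signs in the sections. As HFD minus NCD, it was −0.86 for Saa2, −1.15 for Igfbp1, 1.05 for G0s2 and 1.24 for Apoa4. With 1 section per diet the difference was not tested. In spots off the tissue, which entered only the alternative that subtracts their mean level, Hamp stood at 4015 CPM in NCD and 617 CPM in HFD.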

How the results depend on the processing

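No paired analysis was possible because each diet had 1 section. The log2 ratio of Hamp, −2.95, was −2.75 as a mean over spots, −2.75 with spots drawn down to 3000 UMIs, −2.73 with the score drawn down too, −3.02 with score and expression from separate UMIs, −3.19 after centring, −2.99 from the 45th to the 55th percentile, −2.99 at a minimum of 5000 UMIs, −2.88 with a score of Cyp2e1 and Cyp2f2, −3.16 with the NCD limits in both sections, −3.05 after subtraction of the off-tissue level and −2.66 at 10000 to 20000 UMIs. For Hamp2 (1.59) it was 1.92 as a mean, 2.01 at 3000 UMIs, 1.35 centred, 1.41 with the NCD limits and 2.08 at 10000 to 20000 UMIs. For Igfbp2 (−1.81) it was −1.89 at 3000 UMIs, −1.71 with separate UMIs, −2.05 centred, −1.92 with the NCD limits and −1.88 at 10000 to 20000 UMIs.

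The 506 higher genes became 109 and 117 at 3000 UMIs without and with the score drawn down, 324 with separate UMIs, 299 centred, 328 from the 45th to the 55th percentile, 210 at 10000 to 20000 UMIs, and 130 and 1142 at gene minimums of 1000 and 50 UMIs. The 108 lower genes became 165 centred, and 71 and 188 at those minimums. The 19 NCD peaks became 8, 7 and 12 in the settings of 3000 and separate UMIs, and 6 and 37 at those minimums. The 81 HFD peaks became 18, 13 and 53 in the same settings, 32 with the NCD limits, 9 at 10000 to 20000 UMIs and 12 at the minimum of 1000. Fewer UMIs or spots leave fewer genes to test in several of these settings.

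Some zone ratios changed sign: in NCD at 10000 to 20000 UMIs, Saa2 (−0.26) and Hba-a2 (−0.21) over the periportal side, in NCD with the score of Cyp2e1 and Cyp2f2, Saa2 over the pericentral side (0.51), and in HFD with score and expression at 3000 UMIs, Mmp12 over the periportal (−0.21) and the pericentral side (−0.072). The cause was not tested. Over the 91 diet ratios of genes named in the text, 1266 values under alternatives held no change of sign of a called ratio, 969 of them moving by less than the counting interval and 297 by more.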
